A study of Sus scrofa with 11 samples.

Results

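Genes of the extracellular matrix and of its receptors were followed in pig back muscle: collagens, laminins, integrins, matrix metalloproteinases, ADAMTS proteases, their tissue inhibitors (TIMPs) and lysyl oxidases. They were taken by symbol, as every gene starting with COL and a digit, LAMA, LAMB, LAMC, ITGA, ITGB, ADAMTS, MMP, TIMP or LOX. This found 106 of the 25322 genes in the table, of which 11804 carry a symbol. The 55 genes with at least 1 CPM (counts scaled to a common library total) in at least 4 of 11 pigs were kept and are described here.

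RNA was sequenced from the longissimus lumborum, a long muscle of the back, of 11 female pigs aged 23 weeks, grouped by histology of the region that was sampled. The 7 fibre1 pigs (numbered 1, 2, 5, 6, 7, 12 and 17) had more than 17% type I fibres, which are slow and oxidative, and less than 70% type IIB fibres, which are fast and glycolytic. The 4 fibre2B pigs (10, 11, 14 and 16) had less than 8% type I and more than 70% type IIB fibres. The pigs were sampled after slaughter, no treatment is named, and breed and litter are not given in the sources used here. The groups therefore differ by a measured property of the muscle and not by an intervention.

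In skeletal muscle each fibre is wrapped in a basement membrane, a thin sheet built on networks of type IV collagen and of laminins, each laminin being a trimer of an alpha, a beta and a gamma chain. Around it lies interstitial connective tissue made mainly of fibrils of collagens I and III. Integrins, each a pair of an alpha and a beta chain, bind fibres and other cells to both kinds of matrix. Metalloproteinases and ADAMTS enzymes cleave matrix proteins, TIMPs inhibit them, and lysyl oxidases cross-link collagen and elastin.

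The table gives estimated counts, and a pig's total was between 14832736 (pig 14) and 36374829 (pig 12). In fibre1 pigs 5 and 6 the 10 most abundant nuclear genes took 45.2% and 44.1% of the counts, against 30.0% to 36.8% in the other 9 pigs. The 55 genes took 0.0752% and 0.0854% of the counts of those pigs and 0.115% to 0.222% of the others', pig 14 having the highest share. Values below are CPM after scaling by trimmed mean of M values (TMM), which adjusts for such a difference in makeup. Because the libraries of pigs 5 and 6 stand apart, calls are given with and without them. Calls are also given without pig 14. Its top-gene share of 33.5% lay within the range of the other pigs, but leaving it out took edgeR's calls to 0 of all genes tested. In bulk muscle, fewer cells of a type and less RNA per cell cannot be told apart.

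Several central genes of these families were not analysed here. The table pairs no ID with COL1A1, COL4A1, COL18A1, LAMA2, LAMA5, ITGA7, ITGB5, LOXL2, TIMP2, TIMP3 or TIMP4, among 34 such family symbols in RefSeq. Of the 51 genes below the expression filter, 11 still entered the fit across all genes. Of those 11, ADAMTS7 and ITGA8 passed an adjusted p of 0.05, as did 9.01% of all genes tested. Without fibre1 pigs 5 and 6 both calls were lost (edgeR adjusted p = 0.102 and 0.0852), and without fibre2B pig 14 as well (0.137 and 0.134). LOXHD1, MMP8 and MMP13 had 0 counts in all pigs, which allows up to 0.0825 to 0.202 CPM per library. Just inside the filter, ADAMTS4 had 0.196 to 1.26 CPM in fibre1 and 0.275, 1.04, 1.14 and 0.104 CPM in fibre2B pigs 10, 11, 14 and 16. Just outside it, ADAMTS7 had 0.576 to 1.88 CPM in fibre1 and 0.341 to 0.573 CPM in fibre2B, and the integrin chain gene ITGA8 had 0.325 to 0.880 against 0.694 to 3.97 CPM.

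Comparing fibre1 with fibre2B asks which of these genes differ with the fibre makeup of the muscle. COL4A2, a chain of basement membrane collagen, and ITGA5, the alpha chain of the classical fibronectin receptor, were higher in fibre1. LAMB1, a laminin beta chain, and ITGAV, the alpha chain of the vitronectin receptors, were higher in fibre2B. By edgeR's quasi-likelihood test, with Benjamini-Hochberg adjustment over all 11329 genes tested and a threshold of 0.05, these 4 of the 55 (7.27%) passed, against 9.01% of all genes tested. Calls higher in fibre1 made up 4.38% of all genes and those higher in fibre2B 4.63%. At an unadjusted p under 0.05 it was 17 of the 55 (30.9%), against 28.9% of all genes. The share of changed genes was thus near that of all genes. The median log2 fold change (fibre1 minus fibre2B) was -0.0427 over the 55 and 0.00726 over all genes, with 26 of the 55 positive and 29 negative. In 4 genes, among them COL4A2, ITGAV and ITGB1BP1, the groups did not overlap in CPM, 7.27% against 7.55% of all genes. Without fibre2B pig 14, edgeR called 0 of the 55 and 0 (0%) of all 11538 genes then tested. At an unadjusted p under 0.05 there were then 14 of the 55, against 21.1% of all genes. Without that pig DESeq2 called 5 of the 55 (6.68% of all genes) and limma-voom with quality weights 7 (9.49%). With all pigs DESeq2 called 10 (15.1% of all genes), limma-voom with quality weights 9 (15.4%), edgeR with a surrogate variable 8 (13%) and edgeR with the top-gene share as a covariate 2 (4.09%). Without fibre1 pigs 5 and 6 edgeR called 0 of the 55 and 0.249% of all genes. At an unadjusted p under 0.05 there were then 14 of the 55, against 21.7% of all genes.

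**Figure D1:**
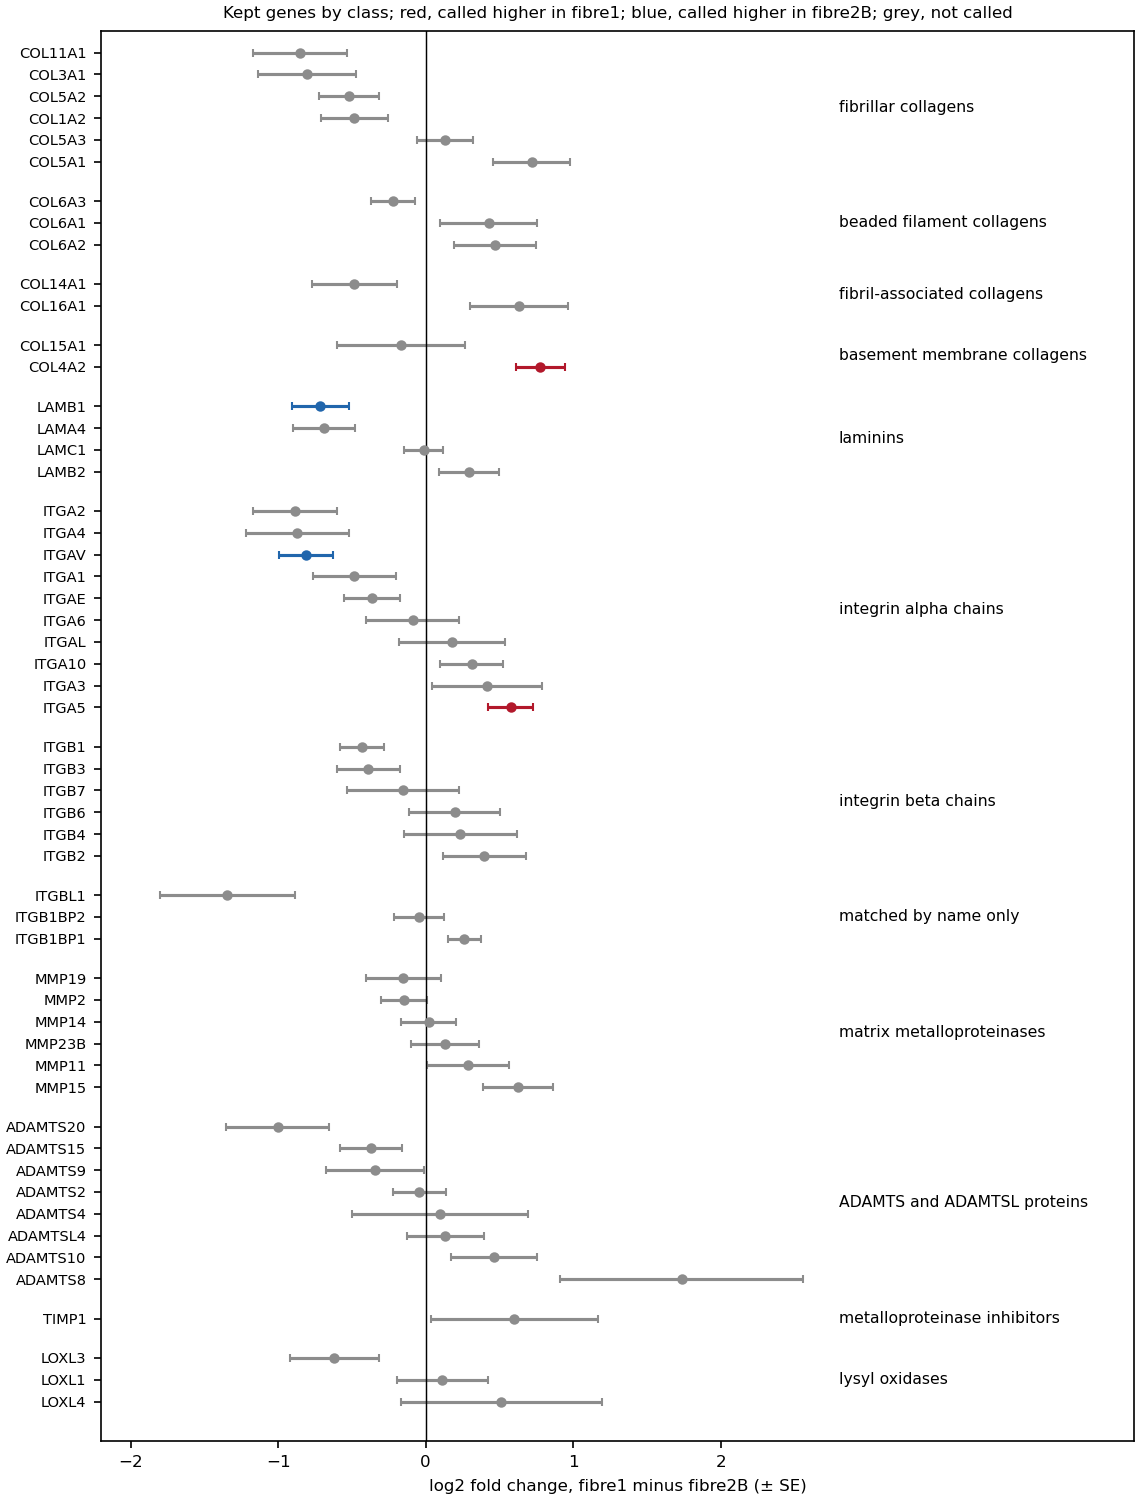
Log2 fold change with its standard error for the kept genes reported here, by class, as fibre1 minus fibre2B on the horizontal axis. Values run from -1.34 (ITGBL1) to 1.73 (ADAMTS8), and the 4 coloured genes, COL4A2, ITGA5, ITGAV and LAMB1, are those that passed an adjusted p of 0.05.

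Of 6 fibrillar collagen genes 4 had negative and 2 positive estimates. By edgeR's test 0 passed, with 4 at an unadjusted p under 0.05 (28.9% of all genes), and DESeq2 called 1, COL5A1. COL1A2, which encodes the second chain of type I collagen, had 203 to 450 CPM in fibre1 (median 276). In fibre2B it had 577, 306, 439 and 305 CPM in pigs 10, 11, 14 and 16. The groups overlapped, with pigs 10 and 12 the highest of each, at means of 291 ± 80.8 (SD, n = 7) and 407 ± 130 CPM (n = 4) and an estimated log2 change of -0.48 ± 0.23 (SE; edgeR adjusted p = 0.178).

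COL3A1, the chain of type III collagen, which forms thin fibrils with type I, had 119 to 374 CPM in fibre1 (median 218). The fibre2B pigs had 490, 310, 586 and 228 CPM. The lowest 2 values of all pigs were those of pigs 5 and 6, at 121 and 119 CPM. The log2 fold change was -0.80 ± 0.33 (adjusted p = 0.129), and -0.55 without pigs 5 and 6.

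The 2 chains of type V collagen that assemble together, and that start and limit the growth of type I fibrils, had estimates of opposite sign. COL5A1 had 5.03 to 11.2 CPM in fibre1 (median 8.98) and 3.90, 7.63, 4.03 and 5.21 CPM in fibre2B, an estimated log2 change of 0.72 ± 0.26 (adjusted p = 0.0934). COL5A2 had 8.68 to 17.1 CPM (median 13.3) and 20.3, 18.8, 22.5 and 15.0 CPM, an estimated log2 change of -0.52 ± 0.20 (adjusted p = 0.114). Neither passed edgeR's test, and the groups overlapped in both genes, through fibre2B pigs 11 and 16 for COL5A1 and pig 16 for COL5A2. COL5A1 passed under DESeq2 (adjusted p = 0.0476) and without fibre2B pig 11 (0.0482), and COL5A2 with a surrogate variable in the fit (0.0469). In the RefSeq gene order COL5A2 neighbours COL3A1.

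The third type V chain gene, COL5A3, had 13.6 ± 3.32 and 12.4 ± 1.71 CPM, an estimated log2 change of 0.13 ± 0.19. COL11A1, a minor fibril chain related to type V, had 1.24 to 2.95 CPM in fibre1 and 5.55, 1.69, 2.55 and 2.87 CPM in fibre2B, an estimated log2 change of -0.85 ± 0.32 (adjusted p = 0.102). Summed over the 6 genes, fibrillar collagens had 350.6 to 806 CPM in fibre1 (median 532) and 567 to 1108 CPM in fibre2B (median 862), so the sums overlapped too. Fibroblasts make most fibrillar collagen, and some of their markers were higher in fibre2B. DCN, LUM and FAP, 3 of 12 listed and of 5 tested, were called higher in fibre2B (4.63% of all genes). Of the 5 tested, 4 had negative estimates and 1 a positive one (log2 fold change 0.02). The list summed to 122 to 270 CPM in fibre1 and 226 to 524 CPM in fibre2B, most of it DCN and LUM themselves. PDGFRA, a defining fibroblast receptor gene, was near 0 in both groups (0.112 and 0.236 CPM), and the part of fibroblast number in the collagen values was not tested.

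**Figure D2:**
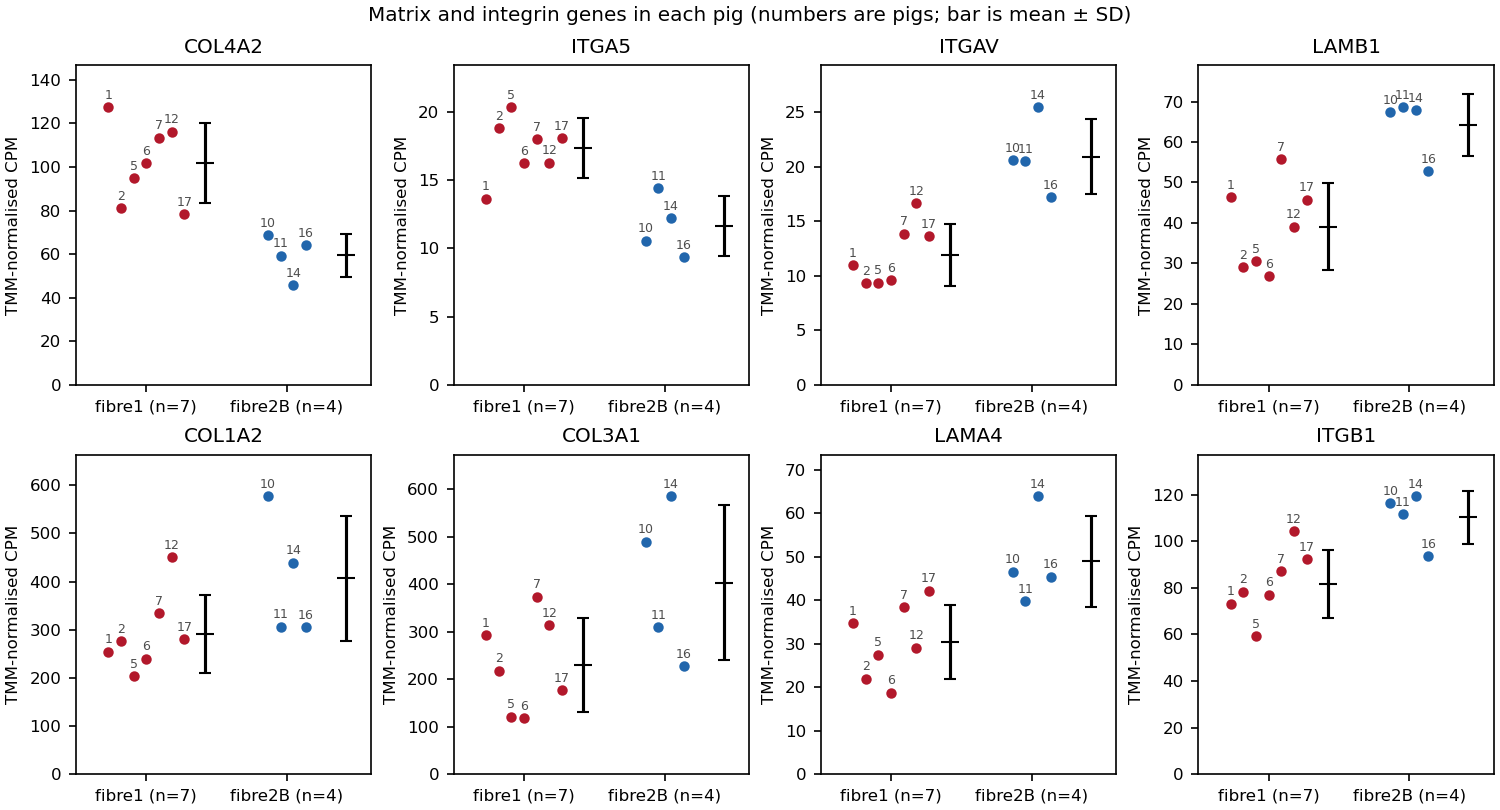
TMM-normalised CPM of 8 genes in each pig, with pig numbers at the points and the mean ± SD beside each group. COL4A2 and ITGAV show groups that do not overlap, while fibre2B pigs 11 and 16 lie inside the range of fibre1 for COL3A1, and pigs 11, 14 and 16 for COL1A2.

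Among the collagens that link fibrils to other matrix, 0 of 3 beaded filament and 0 of 2 fibril-associated chains passed edgeR's test or DESeq2, with 0 at an unadjusted p under 0.05. Type VI collagen forms beaded filaments near the basement membrane from 3 different chains. COL6A1 had 3.58 ± 1.6 and 2.65 ± 0.910 CPM (log2 fold change 0.43 ± 0.33, adjusted p = 0.406), and COL6A2 23.4 ± 6.98 and 16.9 ± 7.5 CPM (0.47 ± 0.28, adjusted p = 0.280). COL6A3, whose large chain joins the other two, had 18.3 ± 2.85 and 21.3 ± 3.15 CPM (-0.22 ± 0.15, adjusted p = 0.344). Of the fibril-associated collagens, COL14A1 had 10.4 to 35.0 CPM in fibre1 and 37.8, 19.0, 30.3 and 23.3 CPM in fibre2B (-0.48 ± 0.29, adjusted p = 0.289). COL16A1 had 1.70 ± 0.677 and 1.10 ± 0.276 CPM (0.63 ± 0.33, adjusted p = 0.223).

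COL4A2 (ENSSSCG00000009545) had the smallest p of the 55 genes, and its estimate was opposite in sign to those of 4 of the 6 fibrillar chains. It had 78.5 to 128 CPM in fibre1 (median 102) and 68.6, 59.3, 45.9 and 64.1 CPM in fibre2B pigs 10, 11, 14 and 16. Every fibre1 pig lay above every fibre2B pig, with fibre1 pig 17 and fibre2B pig 10 the closest. Means were 102 ± 18.4 (SD, n = 7) and 59.5 ± 9.84 CPM (n = 4), an estimated log2 change of 0.78 ± 0.17 (adjusted p = 0.0201). An exact two-sided permutation test over the 330 splits of the pigs gave p = 0.00303, the smallest it can give. The call was lost without fibre2B pig 14 (log2 fold change 0.68, adjusted p = 0.0794) and without fibre1 pigs 5 and 6 together (0.80, adjusted p = 0.0593).

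COL4A1, the partner of COL4A2 in the collagen IV trimer and its neighbour in the RefSeq order, has no ID here, so the pair could not be compared. The other basement membrane collagen kept, COL15A1, which lies between the basement membrane and the interstitium, had 0.664 to 4.41 CPM in fibre1 and 1.79, 2.51, 1.65 and 3.18 CPM in fibre2B (log2 fold change -0.17 ± 0.43, adjusted p = 0.826). Blood vessels also carry collagen IV, and endothelial markers were given the same test. Of 10 listed and 7 tested, 0 passed edgeR's test, 4 had an unadjusted p under 0.05 (28.9% of all genes) and 4 were called by DESeq2 (15.1%). Their estimates were positive for 5, among them TIE1 (0.78, edgeR adjusted p = 0.0579), and negative for 2, among them TEK (-0.74, 0.0777). The sum over the list was 150 to 214 CPM in fibre1 and 132 to 178 CPM in fibre2B, and the part of these cells in the COL4A2 result was not tested.

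Of the 5 laminin chains kept, 1 passed, in the direction opposite to COL4A2 (4.63% of all genes in that direction). At an unadjusted p under 0.05 there were 3 (28.9% of all genes). DESeq2 called 2 (15.1%) and limma-voom with quality weights 3 (15.4%). LAMB1 (ENSSSCG00000015444) had 26.9 to 55.8 CPM in fibre1 (median 39.1) and 67.3, 68.7, 67.9 and 52.8 CPM in fibre2B. Pigs 10, 11 and 14 lay close together above all of fibre1, and pig 16 lay below fibre1 pig 7. Means were 39.1 ± 10.8 and 64.2 ± 7.61 CPM, an estimated log2 change of -0.71 ± 0.19 (adjusted p = 0.039; exact permutation p = 0.0152). The call was lost when any of fibre1 pigs 1, 2, 5 or 6 or any of the 4 fibre2B pigs was left out (adjusted p from 0.0513 to 0.112), without pigs 5 and 6 together (-0.57, adjusted p = 0.105), and once the share of counts in the top 10 genes entered the fit as a covariate (0.0624).

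LAMA4, the alpha chain of laminins of blood vessels and other mesenchymal tissue, had 18.7 to 42.2 CPM in fibre1 (median 29.1) and 46.6, 39.8, 63.9 and 45.4 CPM in fibre2B. Only fibre2B pig 11 lay within the fibre1 range, below fibre1 pig 17. The log2 fold change was -0.69 ± 0.21 (edgeR adjusted p = 0.0572), and it passed under DESeq2 (0.0247) and under limma-voom with quality weights (0.0302).

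LAMB2, the beta chain known from laminins of the neuromuscular junction, had 57.1 ± 17.3 and 46.6 ± 6.90 CPM (log2 fold change 0.29 ± 0.20, adjusted p = 0.362). LAMC1, the gamma chain that most laminins share, had 13.3 ± 1.78 and 13.4 ± 0.377 CPM (-0.01 ± 0.13, adjusted p = 0.958). A p above the threshold does not show that the levels are equal. The muscle laminin chain LAMA2 has no ID, so the main alpha chain of the fibre's own basement membrane was not analysed here.

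Of the integrin alpha chains, 10 were kept, with 1 called in each direction (4.38% of all genes higher in fibre1, 4.63% higher in fibre2B). At an unadjusted p under 0.05 there were 4 (28.9% of all genes), and DESeq2 called 3 (15.1%). ITGAV (ENSSSCG00000016027) pairs with several beta chains to bind vitronectin, fibronectin and latent TGF-beta. It had 9.35 to 16.7 CPM in fibre1 (median 10.9) and 20.6, 20.5, 25.5 and 17.2 CPM in fibre2B. The groups did not overlap, though fibre1 pig 12 and fibre2B pig 16 were close. Means were 11.9 ± 2.85 and 20.9 ± 3.42 CPM, an estimated log2 change of -0.81 ± 0.18 (adjusted p = 0.0237; exact permutation p = 0.00606). The call was lost without fibre2B pig 10 (adjusted p = 0.0529) or pig 14 (-0.69, adjusted p = 0.0856) and without fibre1 pigs 5 and 6 together (-0.70, adjusted p = 0.0775).

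ITGA5 (ENSSSCG00000000293), which pairs with ITGB1 to bind fibronectin, had 13.6 to 20.3 CPM in fibre1 (median 18.0) and 10.5, 14.4, 12.2 and 9.33 CPM in fibre2B. Only fibre1 pig 1 and fibre2B pig 11 crossed over. Means were 17.3 ± 2.17 and 11.6 ± 2.19 CPM, an estimated log2 change of 0.58 ± 0.15 (adjusted p = 0.0382; exact permutation p = 0.00606). The call was lost without any of fibre1 pigs 2, 5 or 6 or fibre2B pigs 10, 14 or 16 (adjusted p from 0.058 to 0.1) or pigs 5 and 6 together (0.0933), with no filter on low counts (0.052) and with the top-gene share as a covariate (0.0677).

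Of the alpha chains of collagen-binding integrins, ITGA2 and ITGA1, neighbours in the RefSeq order, had negative estimates and ITGA10 a positive one (2.54 ± 0.459 and 2.04 ± 0.398 CPM, log2 fold change 0.31 ± 0.21, adjusted p = 0.350). ITGA2 had 1.16 to 1.93 CPM in fibre1 and 4.31, 1.99, 1.53 and 3.75 CPM in fibre2B (log2 fold change -0.89 ± 0.28, edgeR adjusted p = 0.0649), and passed under DESeq2 (0.036). ITGA1 had 3.24 ± 1.26 and 4.56 ± 0.918 CPM (-0.48 ± 0.28, adjusted p = 0.276). ITGA4, found on leukocytes and muscle precursors, had 0.963 ± 0.434 and 1.81 ± 0.617 CPM (-0.87 ± 0.35, adjusted p = 0.119), and ITGAE, known from lymphocytes in epithelia, 5.57 ± 0.972 and 7.18 ± 1.76 CPM (-0.36 ± 0.19, adjusted p = 0.219). Leukocyte markers (10 listed, 7 tested, 0 called by edgeR or DESeq2, 1 at an unadjusted p under 0.05) summed to 5.78 to 20.7 CPM in fibre1 and 13.1 to 27.8 CPM in fibre2B, and their part in these values was not tested. The other alpha chains, ITGA3, ITGA6 and ITGAL, had log2 fold changes from -0.09 to 0.42.

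Among 6 integrin beta chains 0 passed edgeR's test (9.01% of all genes). At an unadjusted p under 0.05 there was 1 (28.9% of all genes), and DESeq2 called 1 (15.1%). ITGB1, the beta chain that most matrix-binding alpha chains share, had 59.3 to 104 CPM in fibre1 (median 78.3) and 116, 112, 119 and 93.6 CPM in fibre2B. Fibre2B pig 16 lay below fibre1 pig 12, and the other fibre2B pigs lay above all of fibre1. The log2 fold change was -0.43 ± 0.15 (edgeR adjusted p = 0.0786), and it passed under DESeq2 (0.0458) and without fibre1 pig 12 (0.0358). ITGB3, a partner of ITGAV, had 2.64 ± 0.484 and 3.47 ± 1.01 CPM (-0.39 ± 0.22, adjusted p = 0.253). ITGB6, another partner of ITGAV, had 4.88 ± 1.37 and 4.26 ± 2.21 CPM (0.20 ± 0.31, adjusted p = 0.707), and its estimate changed sign without pig 14. ITGB2, the leukocyte beta chain, had 3.14 ± 1.13 and 2.41 ± 0.672 CPM (0.40 ± 0.28, adjusted p = 0.369).

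Another 3 genes matched by their symbols' first letters without being integrin chains. ITGB1BP1, an intracellular protein that binds the tail of ITGB1, had 17.9 to 20.4 CPM in fibre1 and 14, 16.9, 16.6 and 15.6 CPM in fibre2B. The groups did not overlap, at the smallest allowed exact permutation p of 0.00303, but the difference was small (log2 fold change 0.26 ± 0.11, edgeR adjusted p = 0.138). ITGB1BP2, the muscle chaperone-like protein melusin, had 105 ± 19.1 and 108 ± 19.8 CPM (-0.05 ± 0.17, adjusted p = 0.881). ITGBL1, an integrin-like secreted protein that was 1 of the lowest genes kept, had 0.108 to 1.16 CPM in fibre1 and 1.83, 1.3, 1.31 and 1.09 CPM in fibre2B (-1.34 ± 0.46, edgeR adjusted p = 0.0766). It passed under DESeq2 and under limma-voom with quality weights.

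Of 6 matrix metalloproteinases 0 passed edgeR's test (9.01% of all genes). An unadjusted p under 0.05 was reached by 1 (28.9% of all genes), and DESeq2 called 0 (15.1%). MMP15, a membrane-bound metalloproteinase, had 21.4 to 46.7 CPM in fibre1 (median 28.8) and 21.5, 10.8, 20.6 and 24.1 CPM in fibre2B. Pig 6 was the highest in fibre1 and pig 11 the lowest in fibre2B, while fibre2B pigs 10 and 16 lay within the range of fibre1 (log2 fold change 0.62 ± 0.24, adjusted p = 0.105; exact permutation p = 0.0121). MMP2, the gelatinase that cleaves collagen IV and denatured collagens, had 45.7 ± 6.62 and 50.6 ± 11.1 CPM (-0.15 ± 0.16, adjusted p = 0.555). MMP14, the membrane enzyme that activates MMP2, had 7.17 ± 1.67 and 7.07 ± 0.879 CPM (0.02 ± 0.19, adjusted p = 0.954). MMP11, a secreted enzyme known from stromal cells, had 23.9 ± 9.78 and 19.6 ± 5.05 CPM (0.29 ± 0.28, adjusted p = 0.520).

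Among 8 ADAMTS and ADAMTS-like genes 0 passed edgeR's test (9.01% of all genes). Only ADAMTS20 had an unadjusted p under 0.05 (28.9% of all genes), and it was called by DESeq2 (adjusted p = 0.0430, 15.1% of all genes). It had 0.380 to 1.93 CPM in fibre1 and 1.74, 3.16, 2.10 and 2.29 CPM in fibre2B (log2 fold change -1.0 ± 0.35, adjusted p = 0.0832). ADAMTS8 had the largest estimate of the 55 genes and also the largest error, at 1.73 ± 0.82 (adjusted p = 0.182). The estimate was 2.75 without fibre2B pig 11 and 1.42 to 1.95 when any other pig was left out, and it passed in 0 of these 11 edgeR fits. In fibre1 it had 1.56 CPM in pig 1, 6.11 CPM in pig 17 and 32.1 to 59.6 CPM in the other 5 pigs, against 8.99, 23.3, 2.89 and 1.93 CPM in fibre2B. Both groups held pigs with high and with low levels. ADAMTS15, its neighbour in the RefSeq order, did not share that spread, at 5.30 to 8.06 CPM in fibre1 and 7.15, 6.89, 14.1 and 7.14 CPM in fibre2B (-0.37 ± 0.21, adjusted p = 0.266). ADAMTS2, which removes the amino-terminal propeptide of fibrillar procollagens, had 9.06 ± 2.03 and 9.36 ± 1.25 CPM (-0.04 ± 0.18, adjusted p = 0.897).

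TIMP1, the only inhibitor kept, and 3 lysyl oxidase-like genes did not pass by edgeR (3 lysyl oxidases: 0 at an unadjusted p under 0.05, 0 by DESeq2). TIMP1 had 72.8 CPM in fibre1 pig 2, and 8.70 to 32.2 CPM in the other 6, against 9.58, 14.7, 27.4 and 10.8 CPM in fibre2B. Its log2 fold change was 0.60 ± 0.57 (adjusted p = 0.508) and -0.0124 without pig 2. LOXL4 was also highest in pig 2, at 10.7 CPM against 0.689 to 1.54 CPM in the other fibre1 pigs and 0.963 to 2.43 CPM in fibre2B. Its estimate of 0.51 ± 0.68 (adjusted p = 0.647) changed sign without pig 2 (-0.56) and under DESeq2 (-0.51). LOXL3 had 1.43 ± 0.494 and 2.21 ± 0.527 CPM (-0.62 ± 0.30, adjusted p = 0.191), and LOXL1 3.61 ± 0.924 and 3.33 ± 1.71 CPM (0.11 ± 0.31, adjusted p = 0.835). LOX itself had 24 counts over all pigs and was not kept.

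**Figure D3:**
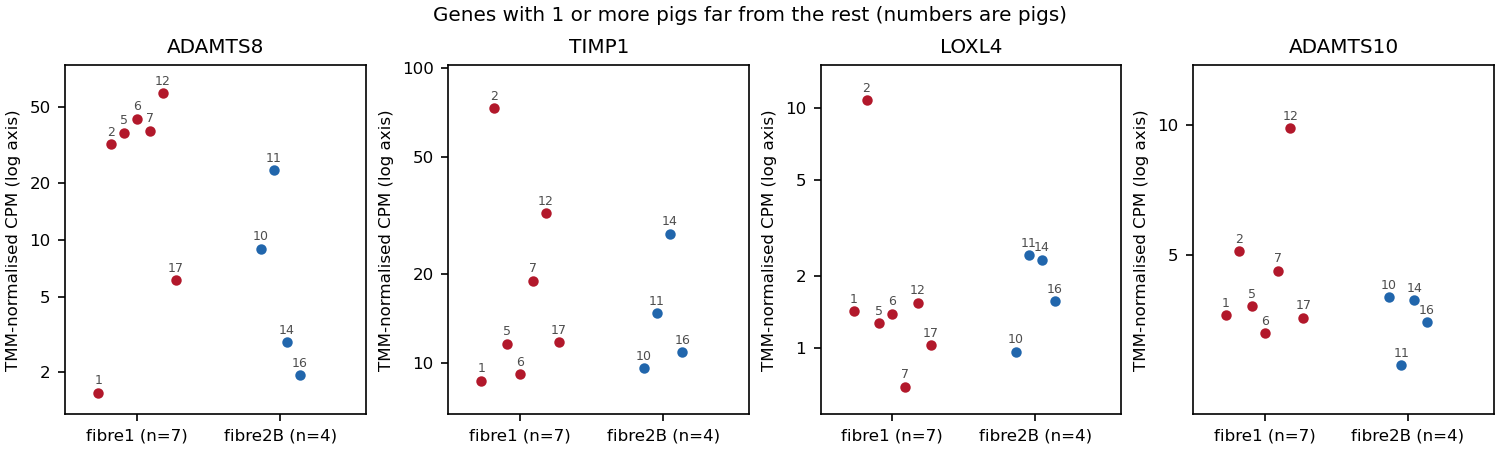
TMM-normalised CPM on a log axis of ADAMTS8, TIMP1, LOXL4 and ADAMTS10 in each pig, with pig numbers at the points. Pig 2 stands highest for TIMP1 (72.8 CPM) and LOXL4 (10.7 CPM), pig 12 for ADAMTS10 (9.83 CPM), and pigs 1 and 17 lie below the other fibre1 pigs for ADAMTS8.

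To set COL4A2 against single fibrillar collagen genes without any scaling between libraries, counts of 2 genes were divided within each pig. Gene length does not enter a difference of such ratios between pigs. The pairs were chosen after the values were seen, so they describe the pigs and were not tested. The log2 ratio of COL4A2 to COL3A1 was -1.08 ± 0.57 in fibre1 (-1.72 to -0.22) and -2.68 ± 0.78 in fibre2B (-3.67 to -1.83), a difference of 1.6. That of COL4A2 to COL1A2 was -1.49 ± 0.38 (-1.95 to -0.99) and -2.74 ± 0.50 (-3.26 to -2.25), a difference of 1.25. For both ratios every fibre1 pig lay above every fibre2B pig, as for the CPM of COL4A2 alone. The other basement membrane collagen kept, COL15A1, had a negative estimate (-0.17). Of the 6 fibrillar genes 4 had negative and 2 positive estimates, so these ratios describe their genes and not whole classes.

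The log2 ratio of ITGA5 to ITGAV was 0.56 ± 0.41 in fibre1 (-0.03 to 1.12) and -0.86 ± 0.24 in fibre2B (-1.06 to -0.51), again without overlap. That of LAMB2 to LAMB1 was 0.55 ± 0.46 (-0.20 to 1.0) and -0.46 ± 0.31 (-0.85 to -0.13), where fibre1 pig 17 lay below fibre2B pig 16. COL5A1 to COL5A2 gave -0.65 ± 0.41 and -1.92 ± 0.60, and the groups overlapped only between fibre1 pig 17 and fibre2B pig 11. COL3A1 to COL1A2, the 2 main fibril genes, differed by -0.36 with wide overlap.

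**Figure D4:**
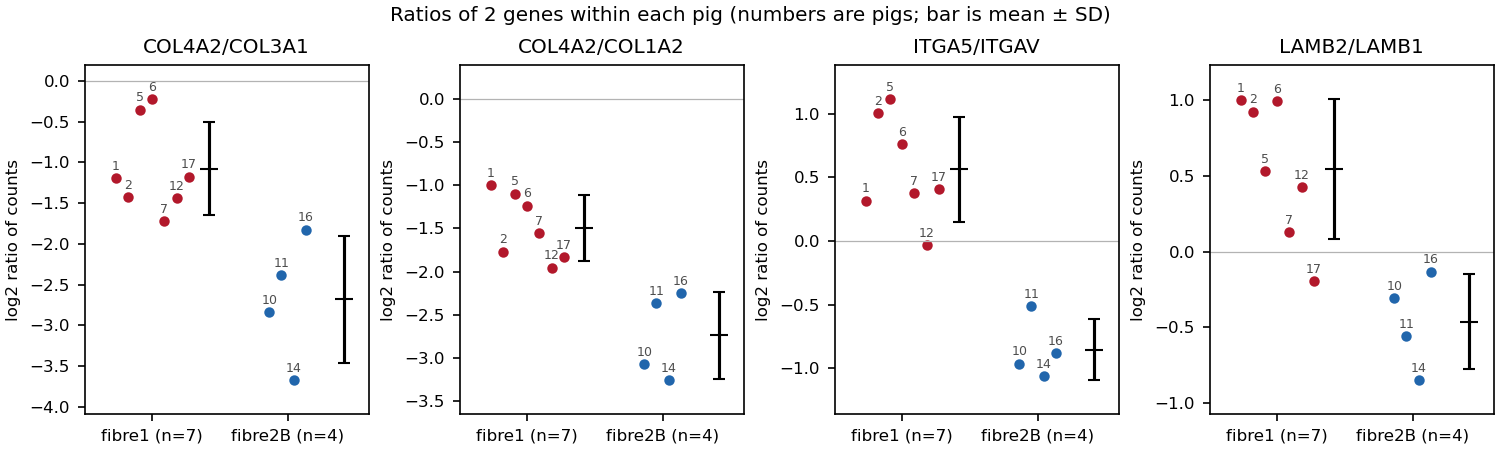
Log2 ratio of the counts of 2 genes within each pig, with pig numbers at the points and the mean ± SD beside each group. Fibre1 and fibre2B do not overlap for COL4A2 to COL3A1, COL4A2 to COL1A2 and ITGA5 to ITGAV, and overlap for LAMB2 to LAMB1.

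Whether 2 collagen chains vary together over pigs was tested for 3 pairs, of which only COL6A1 and COL6A2 share a trimer and the others were chosen after the data were seen, on log2(CPM + 0.5), with 2-sided permutation tests of 100000 draws and adjustment over the pairs. COL6A1 and COL6A2 correlated over the 11 pigs (Pearson r = 0.903, permutation p = 3e-05, adjusted 9e-05; Spearman rho = 0.882, permutation p = 0.00066, adjusted 0.00099). Without the 2 pigs farthest from the median of COL6A1 r was 0.806. Within the 7 fibre1 pigs alone r was 0.893 (exact permutation p = 0.00913, adjusted 0.0183) and rho 0.679 (exact permutation p = 0.110). These fibre1 values were adjusted over this pair and COL1A2 with COL3A1 only. The 4 fibre2B pigs are too few for a value of their own.

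COL1A2 and COL3A1 also correlated (r = 0.837, permutation p = 0.00136, adjusted 0.00204; rho = 0.882, permutation p = 0.00066, adjusted 0.00099). Without the 2 pigs farthest from the median of COL1A2 r was 0.758. Within fibre1 r was 0.746 (exact permutation p = 0.0480, adjusted over the same 2 pairs 0.0480). There rho was 0.786 (exact permutation p = 0.0480, adjusted 0.0960). COL1A2 and COL4A2 were correlated only within fibre1, since the groups do not overlap in COL4A2. There r was 0.309 (n = 7, exact permutation p = 0.514) and rho 0.179 (exact permutation p = 0.713), and r was -0.0210 without the 2 farthest pigs.

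**Figure D5:**
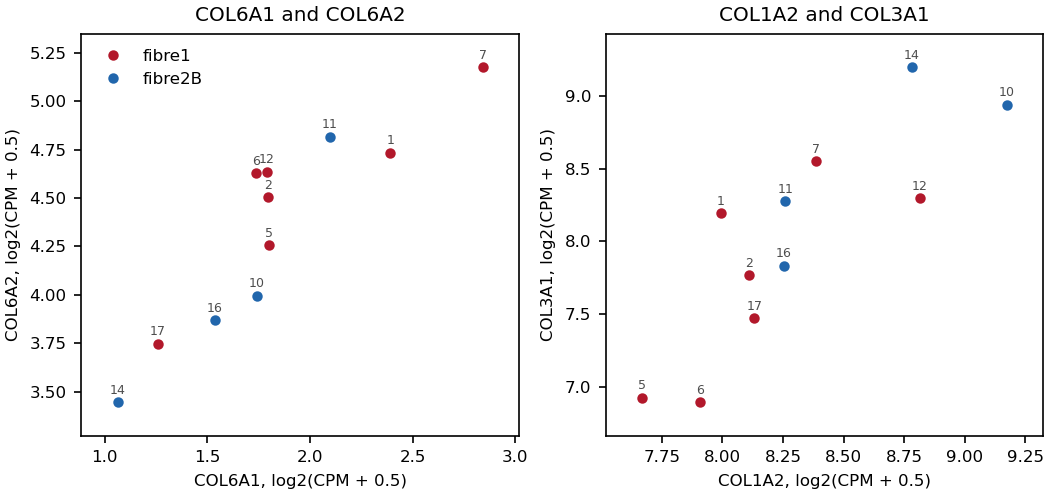
Log2(CPM + 0.5) of COL6A2 against COL6A1 (left) and of COL3A1 against COL1A2 (right), 1 point per pig, coloured by group and numbered by pig. Both pairs rise together over the 11 pigs (r = 0.903 and 0.837), and pigs 5 and 6 hold the lowest values of COL3A1.

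Over the 11 pigs the genes whose log2 CPM was most like that of COL1A2 were ITGA4 (r = 0.920), COL14A1 (0.904), ITGB3 (0.876), ITGB1 (0.856) and COL3A1 (0.837). Those most like COL4A2 were COL5A1 (0.752), LAMB2 (0.698), COL16A1 (0.692), COL6A2 (0.690) and ITGB6 (0.667). These are descriptions over pigs that share group, depth and scaling, with no test.

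Other genes of the same pathways were read from the same fit. Over all genes tested, 4.38% were called higher in fibre1 and 4.63% higher in fibre2B. An unadjusted p under 0.05 was reached by 28.9%, and DESeq2 called 15.1%. Of 24 genes of collagen synthesis and processing, 15 were tested, and 3 were called, all higher in fibre2B (background 4.63% in that direction). P4HA1, a catalytic chain of the prolyl hydroxylase that stabilises the collagen helix, had 11.6 to 17.6 CPM in fibre1 and 18.6, 22.7, 59.5 and 21.5 CPM in fibre2B, without overlap. Its log2 fold change was -0.96 ± 0.27 (adjusted p = 0.0424), and -0.40 without pig 14, the highest (adjusted p = 0.158). PLOD2, a lysyl hydroxylase that sets the kind of cross-link, had 1.31 ± 0.596 and 3.49 ± 1.46 CPM (-1.40 ± 0.34, adjusted p = 0.0287). PCOLCE2, an enhancer of procollagen cleavage, had 3.79 ± 1.06 and 6.99 ± 1.86 CPM (-0.87 ± 0.24, adjusted p = 0.0390). P4HA1 and PCOLCE2 each lost the call in 7 of the 11 fits that left out 1 pig (adjusted p up to 0.158 and 0.136), and PLOD2 in 4 (up to 0.111).

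Partners of the basement membrane numbered 14 tested of 20, with 1 called (background 9.01% in either direction). DMD, which encodes dystrophin, the link from the fibre's actin to its laminin receptor, had 8.44 ± 1.38 and 13.1 ± 3.67 CPM (log2 fold change -0.63 ± 0.18, adjusted p = 0.0495), and was lost in 9 of the 11 fits that left out 1 pig (up to 0.145). Other interstitial matrix genes numbered 25 tested of 35, with DCN and LUM called higher in fibre2B (background 4.63% in that direction). DCN, the proteoglycan decorin that coats collagen fibrils, had 135 ± 35.0 and 297 ± 98.6 CPM (-1.13 ± 0.23, adjusted p = 0.0190) and, of the 11 fits that left out 1 pig, lost the call only in that without pig 14 (0.0700). LUM, the related proteoglycan lumican, had 36.2 ± 12 and 74.8 ± 25.3 CPM (-1.05 ± 0.25, adjusted p = 0.0259) and lost it without fibre1 pig 2 and without fibre2B pig 11 or 14 (up to 0.0851).

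Of other matrix proteases and inhibitors, 18 of 23 were tested and 3 were called, all higher in fibre2B (background 4.63% in that direction). The sheddase ADAM10 had 13.3 ± 3.85 and 22.3 ± 2.54 CPM (log2 fold change -0.74 ± 0.20, adjusted p = 0.0404). FAP, a serine protease of activated fibroblasts, had 8.40 ± 2.12 and 14.6 ± 4.13 CPM (-0.79 ± 0.22, adjusted p = 0.0407), and the related peptidase DPP4 3.62 ± 1.33 and 6.82 ± 0.860 CPM (-0.91 ± 0.25, adjusted p = 0.0421). ADAM10 lost its call in 8 of the 11 fits without 1 pig, and FAP and DPP4 in 7 each (adjusted p up to 0.125, 0.153 and 0.105). Without pigs 5 and 6 together the calls of P4HA1, PLOD2, PCOLCE2, DMD, DCN, LUM, ADAM10, FAP and DPP4 were lost too, at adjusted p from 0.0630 (DCN) to 0.143 (DMD).

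Integrin adhesion partners, the proteins that join integrin tails to actin, had 0 of 23 tested genes called by edgeR (background 9.01%). At an unadjusted p under 0.05 there were 10 (background 28.9%), and DESeq2 called 4 (background 15.1%). Estimates were positive for 16 and negative for 7, with a median of 0.37. TLN1, which encodes the integrin activator talin, had 50.8 ± 5.18 and 38.4 ± 3.88 CPM (0.40 ± 0.12, adjusted p = 0.0525). VCL, vinculin, which strengthens talin's hold on actin, had 88.4 ± 13.1 and 125 ± 30.7 CPM (-0.50 ± 0.16, adjusted p = 0.0682). The TGF-beta pathway, an inducer of matrix genes, had 0 of 19 tested genes called by edgeR. At an unadjusted p under 0.05 there were 5 (background 28.9%), and DESeq2 called 3 (background 15.1%). TGFB1 had 9.51 ± 1.59 and 6.61 ± 0.812 CPM (0.52 ± 0.16, adjusted p = 0.0575), while its receptor TGFBR1 had 13.7 ± 2.25 and 19.3 ± 3.77 CPM (-0.49 ± 0.16, adjusted p = 0.0695).

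Markers of other cells in the muscle were read in the same way. Over all genes tested, edgeR called 4.63% higher in fibre2B and DESeq2 15.1% in either direction, with 28.9% at an unadjusted p under 0.05. Muscle fibre markers summed to 147536 to 303766 CPM in fibre1 and 124252 to 164473 CPM in fibre2B. Of 6 tested, 0 were called by edgeR, 2 had an unadjusted p under 0.05 and 1 was called by DESeq2. All 6 estimates were positive, from 0.35 to 0.64 with a median of 0.455. Tendon markers summed to 8.73 to 29.5 CPM in fibre1 and at most 13.5 CPM in fibre2B (0 of 2 called by edgeR or DESeq2, 0 at an unadjusted p under 0.05), with the tendon regulator MKX at 0 in all pigs. Smooth muscle and pericyte markers summed to 148 to 239 and 154 to 194 CPM, and 1 of 9 tested, KCNJ8, was called higher in fibre2B. Satellite cell markers summed to 34.9 to 58.4 and 45.7 to 73.8 CPM (1 of 6, VCAM1, called higher in fibre2B), Schwann cell markers to 3.06 to 10.4 and 5.09 to 10.4 CPM (0 of 2 called by edgeR or DESeq2, 0 at an unadjusted p under 0.05), and adipocyte markers to 15.4 to 101 and 14.6 to 141 CPM (1 of 5, RBP4, called higher in fibre2B). Blood markers summed to 137 to 467 and 423 to 955 CPM, with HBB called higher in fibre2B. In the 11 fits that left out 1 pig, KCNJ8 lost its call in 7, VCAM1 in 9, RBP4 in 6 and HBB in 7 (adjusted p up to 0.148, 0.198, 0.152 and 0.153). Without pigs 5 and 6 together KCNJ8, RBP4 and VCAM1 lost it (0.102, 0.109 and 0.132) and HBB kept it (0.0467). The part of these cells in the matrix results was not tested.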

How the data were processed

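The deposited values are expected counts (estimated reads per gene, not normalized), 1 column per pig. The submitters' processing notes name CASAVA 1.8.2, FastQC, STAR, RSEM, edgeR, DESeq2 and Sscrofa10.2 without saying what each did. Libraries came from a TruSeq RNA kit, read in 50 single-end cycles with 5 technical repetitions, per the labels and the design text, which name no strand-specific step. So reads of overlapping genes on opposite strands could not be told apart. Each label is a separate animal, and counts of every pair of pigs differed beyond sampling noise (chi-square at least 27.7 times its degrees of freedom). Unused columns numbered 0, and the isoform table was not used.

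Gene IDs were given symbols from a name table, and RefSeq (Sscrofa11.1, another build) gave only names and gene order. Counts were rounded and tested in edgeR 4.0.16 (R 4.3.3) with TMM factors, filterByExpr and the quasi-likelihood F test on group. A standard error is the estimate's size over the root of its F value. The biological coefficient of variation was 29.8%. Exact permutation tests used log2(CPM + 0.5). Alternatives included DESeq2 1.42.0, limma 3.58.1, sva 3.50.0, other scalings and filters, and leaving out pigs.

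The genes, lists and tests were chosen with earlier results of these data known. Genes named are those called, in each class the 3 with the smallest p and the 3 with the highest mean CPM, those at the filter, up to 4 called genes per list and up to 3 per marker list, and members of pairs. COL1A2 stood in for COL1A1, and COL4A2 for COL4A1, after the data were seen. TLN1, VCL, TGFB1, TGFBR1, ITGA1, ITGA4, COL5A3, MMP14, LAMC1, TIE1, TEK and ADAMTS10 were also named after their values were seen. So were ITGA3, ITGA6, ITGA10, ITGAL and PDGFRA. A gene that this rule names is not reported here. Simulated data were used to test the fit.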

Additional observations from a re-analysis of the deposited data

Results flagged for a closer look

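Of 110 sets of values (55 genes in 2 groups), 9 held a pig whose gap to its nearest neighbour exceeded Dixon's 95% critical value, 0.568 for 7 pigs and 0.829 for 4. Chance flags about 1 in 20 sets. In fibre1, pig 2 was highest for TIMP1, an inhibitor of metalloproteinases, at 72.8 CPM against 8.70 to 32.2 CPM in the other 6. The same pig was highest for LOXL4, a lysyl oxidase-like enzyme, at 10.7 against 0.689 to 1.54 CPM. Pig 12 was highest for ADAMTS10, a protease that binds fibrillin microfibrils, at 9.83 against 3.29 to 5.09 CPM, and for ITGB3 at 3.68 against 2.20 to 2.61 CPM. Pig 1 was highest for LAMB2 at 92.9 against 39.9 to 60.9 CPM. Pig 6 was highest for MMP15 at 46.7 against 21.4 to 31.1 CPM, and pig 17 was lowest for LOXL1 at 1.57 against 3.67 to 4.30 CPM. In fibre2B, pig 14 was highest for ADAMTS15 at 14.1 against 6.89 to 7.15 CPM, and pig 16 was lowest for LAMB1 at 52.8 against 67.3 to 68.7 CPM.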

How the results depend on the processing

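No paired analysis was possible because no replicate number occurs in both groups. The 55 genes gave 2 calls higher in fibre1 and 2 higher in fibre2B. Calls higher in fibre1 numbered 1 with no filter on low counts, 1 with the counts' share in the top 10 genes as a covariate, 0 without fibre1 pigs 5 and 6, and 0 to 3 when each pig was left out. Calls higher in fibre2B numbered 7 with DESeq2, 7 with limma-voom and quality weights, 6 with 1 surrogate variable, 1 with that covariate, 0 without pigs 5 and 6, and 0 to 5 when each pig was left out: 0 without pig 10 or 14, 5 without pig 12. Without pigs 5 and 6 edgeR had 14 of the 55 at an unadjusted p under 0.05, against 21.7% of all genes. It then called 28 of all 11243 genes tested, against 1021 with those pigs. All genes called were 1706 by DESeq2, 1748 by limma-voom with quality weights and 463 with the covariate. Added after the data were seen, limma-voom with quality weights without pig 14 gave 5 calls higher in fibre2B and 2 higher in fibre1. The cause of these shifts was not tested.

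Estimates of the 8 genes described here, none of them called, changed sign under some alternative. They were not the only kept genes to do so. The estimates of ADAMTS4, ITGA6, ITGAL, LAMC1 and MMP14, among others, also changed sign when some pig was left out, and these genes were not called either. ADAMTS2 was 0.0455 with the covariate, 0.050 without pigs 5 and 6, and -0.128 to 0.0581 when each pig was left out. COL15A1 was 0.0172 with the covariate and -0.477 to 0.0333 when each pig was left out, and ITGB1BP2 was 0.00697 with the covariate and -0.156 to 0.0352 when each pig was left out. LOXL4 was -0.51 with DESeq2, -0.0356 with limma-voom and -0.56 to 0.69 when each pig was left out. By leaving out a pig, LOXL1 ranged from -0.0686 to 0.52, ITGB6 from -0.0275 to 0.54, MMP2 from -0.227 to 0.0195 and TIMP1 from -0.0124 to 1.02. The correlation of COL1A2 with COL4A2 was -0.0210 without the 2 farthest pigs.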
